A study of Homo sapiens with 4 samples.

Results

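The 38 genes described here are the ATF4 amino acid response genes: the transcription factor ATF4 itself and genes known as its partners or targets in the response to amino acid shortage and to stress in the endoplasmic reticulum. They were taken by name from the deposited count table, which lists 56304 distinct genes, and all 38 were found there and passed the filter on low counts. By role they comprise 7 transcription factors, 7 stress effectors and brakes of the response, 9 enzymes of amino acid and one-carbon synthesis, 6 amino acid transporters and 9 cytosolic tRNA synthetases. The rule that selects them uses only their names and no threshold on a measured value. The set was, however, chosen with earlier results of these data known.

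The study cultured spheroids of MV3, a human metastatic melanoma cell line, in collagen I. It compared the spheroid core with the zone of cells that had moved out into the matrix. Each spheroid was made of 50000 cells and was 1 mm wide. At day 2 a punch of 1 mm, guided by fluorescence, lifted out the core. The invasion zone around it was then taken with a punch of 3 mm. The paper cautions that this cut was vertical, so invading cells above and below the spheroid may remain in the core samples. All cells carried H2B-GFP, a fluorescent histone that marks the nucleus, and no drug or irradiation label is given for these samples. There were 2 libraries of bulk RNA from the core and 2 from the invasion zone, numbered replicate 1 and replicate 2 in each zone. The culture medium was supplemented with serum, pyruvate and glutamine. Only 1 cell line was sequenced, and the sources used here do not say whether a library came from 1 spheroid or from several.

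ATF4 is a leucine zipper transcription factor. When amino acids run short the kinase GCN2 phosphorylates the initiation factor eIF2, and the kinases PERK, PKR and HRI do so under unfolded protein, viral and haem or mitochondrial stress. General translation then falls while the ATF4 mRNA, which carries short upstream reading frames, is translated more, so that ATF4 protein can change with little change in ATF4 mRNA. The protein pairs with C/EBP family members such as CEBPB, CEBPG and DDIT3 (CHOP) at C/EBP-ATF response elements and raises genes for amino acid synthesis, uptake and loading onto tRNA, together with genes that feed back on the response. An mRNA count measures only the transcript and says nothing of the phosphorylation of eIF2 or of ATF4 protein.

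The C/EBP-ATF response element is shown first because it is the DNA element at which ATF4 is known to act. It was not itself used to choose the members. They are known partners or targets of ATF4, however, so a raised share among them is no independent evidence. The letters TGATGNAA were searched on both strands of RefSeq promoter windows on GRCh38.p14, each reaching from 250 bases before to 50 bases after an annotated start of transcription. Of the 38 members, 32 had a window, with 51 windows in all because some genes have several starts. The element was present in 13 of these 32 genes, or 40.6%, beside 1217 of 27305 genes in the whole table, or 4.5%. The other 19 members with a window did not hold it there. The stricter TGATGCAA, which is a subset of the same matches, was present in 8 of 32 members (25.0%) and in 1.1% of all genes. Among the roles the tRNA synthetases held TGATGNAA most often, in 6 of 9 genes. The transporters held it in 3 of 5 and the transcription factors in 2 of 6. In the stress effectors and in the synthesis enzymes it was in 1 of 6. Outside the members, further genes linked to ATF4 or CHOP held it in 6 of 21 (28.6%), and TGATGCAA in the same share. The other cytosolic synthetases held TGATGNAA in 1 of 7. Chaperone genes of the endoplasmic reticulum, which other arms of the unfolded protein response control, held it in 0 of 14. The element was thus neither particular to the members nor evenly spread over their roles. A match is only a match of letters in this window, and nothing in these data measured binding.

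The synthetase sites are printed because the largest share of this role held the element, and those of CEBPG, SLC7A1 and ASNS because each stands for another role. Every sequence reads 5′ to 3′ along the strand of its gene, the element is in capitals, and TTGCATCA or TTTCATCA is the element on the opposite strand. The bases of all but the CEBPG site lay at least partly within exons annotated in GENCODE release 44, and positions are on GRCh38.
MARS chr12:57488054-57488081: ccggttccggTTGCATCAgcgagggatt
TARS chr5:33440957-33440984: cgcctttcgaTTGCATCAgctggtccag
NARS chr18:57621805-57621832: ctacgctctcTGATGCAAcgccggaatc
CARS chr11:3057408-3057435: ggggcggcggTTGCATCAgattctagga
AARS chr16:70289676-70289703: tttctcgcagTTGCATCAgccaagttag
GARS chr7:30594835-30594862: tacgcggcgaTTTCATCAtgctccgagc
CEBPG chr19:33374061-33374088: gcgcggcgtcTGATGCAAcctgccggca
SLC7A1 chr13:29595664-29595691: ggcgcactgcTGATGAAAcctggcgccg
ASNS chr7:97872459-97872486: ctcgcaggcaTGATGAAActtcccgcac

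Total counts per library were 36363358 and 14983135 in the core and 37591782 and 11789243 in the invasion zone, so depth differed between the replicate numbers more than between the zones. The members took between 0.632% and 0.694% of all counts, and mitochondrial transcripts between 1.06% and 1.72%. Replicates of a zone differed beyond counting noise (chi-square over degrees of freedom of 20.7 for the core pair and 19.2 for the invasion zone pair). As to the cell type, the melanocyte factor SOX10 and the pigment enzyme TYR were at 0 counts in every library and MITF stayed between 1.71 and 3.37 CPM (counts of a gene relative to the library total), while VIM lay between 1696 and 2439 CPM and AXL at 633 and 629 CPM in the core and 1224 and 1121 CPM in the invasion zone, so the melanocyte markers of the labelled cell type were absent or low. Of 11 markers of epithelial, blood, endothelial and fibroblast cells, 9 stayed under 0.2 CPM, DCN and LUM were at 0, and the list's summed level was 114 and 66.1 CPM in the core and 43.9 and 14.6 CPM in the invasion zone, made up almost wholly of PDGFRA and PECAM1. Their part in the zone differences below was not tested.

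Levels are given as CPM after scaling by TMM factors, in the order core replicate 1, core replicate 2, invasion zone replicate 1 and invasion zone replicate 2, and differences as log2 fold changes with a standard error (SE), positive where the invasion zone was higher. Differences were tested for 15529 genes at once by the quasi-likelihood test of edgeR without a replicate term, and a gene was called at a Benjamini-Hochberg adjusted p under 0.05 and a change of at least 2-fold. In that test no gene of the whole table was called, in either direction and with or without the fold minimum, so that the background is 0% in each case and the smallest adjusted p of any gene was 0.128. Where simulated replicates were shifted, that test also called 0 of 200 genes changed 3-fold. A lack of calls therefore need not mean a lack of differences, but the size of the simulated shift is not given here. At an unadjusted p under 0.05, 8 members were higher and 6 lower in the invasion zone, or 21.1% and 15.8%, beside 11.9% and 12.4% of all genes tested. DESeq2 without a replicate term gave an adjusted p under 0.05 for 4 members that were higher and 3 that were lower, beside 5.22% and 5.64% of all genes, and limma voom without a replicate term for none.

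When the replicate number entered edgeR's fit as a block, 1 member (SLC7A11) was called higher and 3 (CEBPB, NUPR1 and VLDLR) lower in the invasion zone at 2-fold. These are 2.6% and 7.9% of the members, close to the 3.41% and 7.06% of all genes. With only 4 libraries the blocked fit has few degrees of freedom, so its small p-values rest largely on spread pooled across genes. With the block and no fold minimum 14 members were higher and 8 lower, or 36.8% and 21.1%, beside 19.4% of all genes in each direction. That combination was chosen after the data were seen, and the blocked counts by role and list below use it. The invasion zone pair was wholly above the core pair for 15 members, or 39.5%, where 28.1% of all genes were so placed, and below it for 9, or 23.7%, where 30.3% of all genes were. The median difference of the 38 members was 0.14 on the log2 scale, with 22 genes positive and 16 negative, beside a median of -0.01 and quartiles of -0.41 and 0.34 for all genes. The differences thus went in both directions, also within roles. In bulk RNA, fewer cells that express a gene and less of its RNA per cell cannot be told apart.

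**Figure D1:**
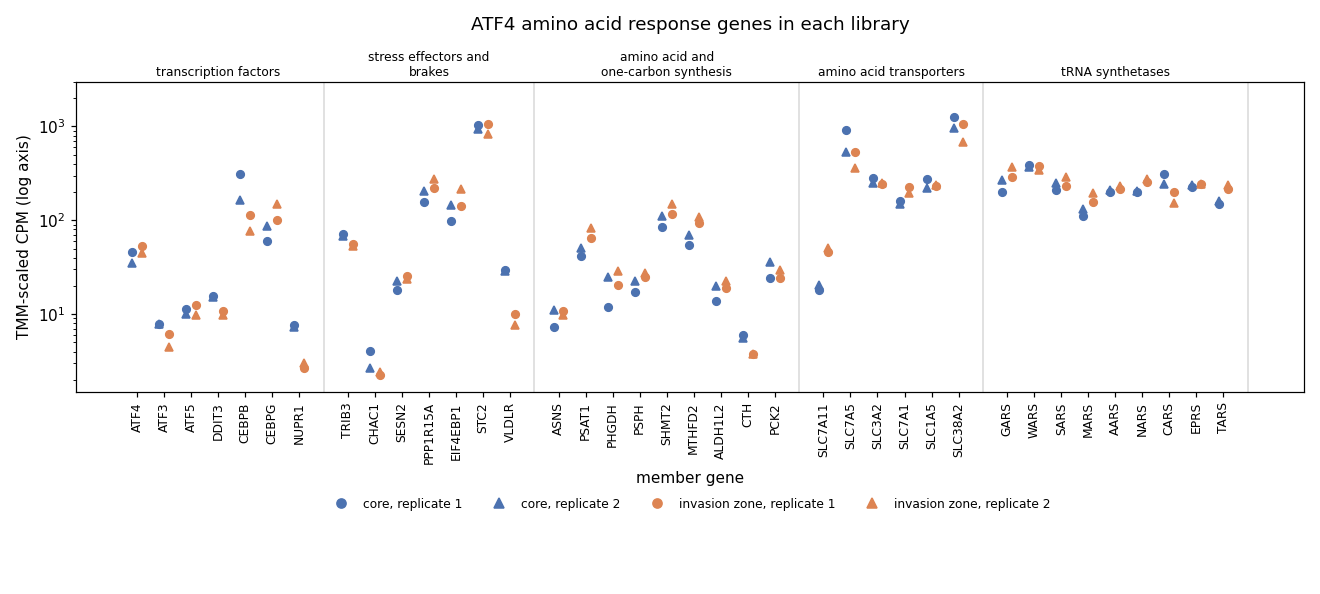
TMM-scaled CPM (log axis) of each of the 38 members in each of the 4 libraries, with core libraries in blue and invasion zone libraries in orange, circles for replicate 1 and triangles for replicate 2. Both orange symbols lie above both blue ones for 15 members and below them for 9, and levels are to be compared within a gene, since they are not divided by length.

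Within each replicate number the members were also compared by the log2 ratio of the invasion zone to the core, after adding 0.5 CPM. The ratio had the same sign in both replicates for 32 of 38 members, or 84.2%, close to the 80.7% of all genes tested. The other 6 were ATF5, STC2, ASNS, PCK2, SLC3A2 and SLC1A5. SLC7A11 stood at the upper end in both replicates and VLDLR at the lower end in both.

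**Figure D2:**
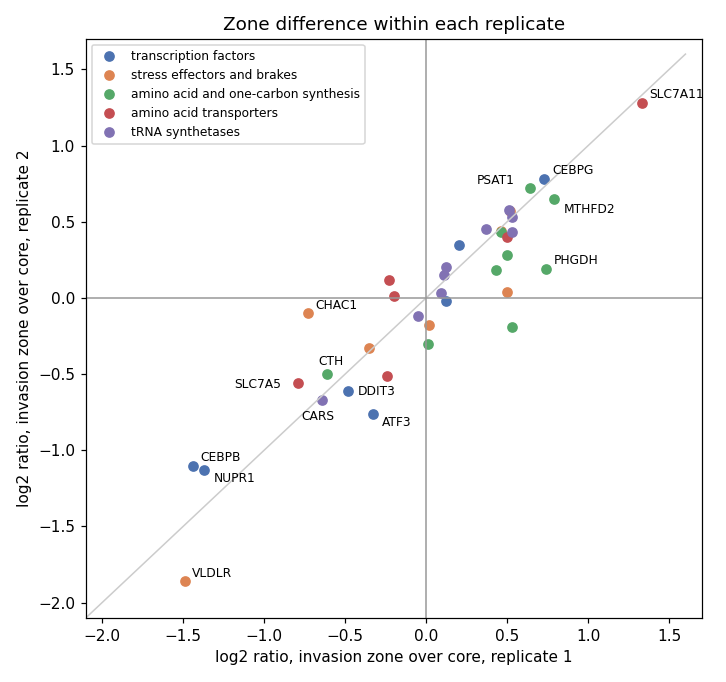
Log2 ratio of the invasion zone to the core for each of the 38 members, with replicate 1 on the horizontal and replicate 2 on the vertical axis, coloured by role, and the line of equal ratios in grey. Of the members, 32 lie in the upper right or lower left quadrant, with SLC7A11 at 1.33 and 1.28 and VLDLR at -1.49 and -1.86.

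Among the 7 transcription factors, the mRNA of ATF4 differed little between the zones, while its partners went different ways. CEBPB and NUPR1 were more than 2-fold lower in the invasion zone, DDIT3 and ATF3 were lower by less, and CEBPG was higher. The list had a median log2 fold change of -0.55, with 3 genes positive and 4 negative.

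ATF4 (chr22:39519695-39522683) had 46.2, 35.3, 53.1 and 45.0 CPM. The zones overlapped, because the lower invasion zone library was below the higher core library. The log2 fold change was 0.27 (SE 0.19, edgeR adjusted p = 0.443), and with the replicate block the adjusted p was 0.0632. With the block and offsets for GC content and length it was 0.36 with an adjusted p of 0.0199.

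CEBPB (chr20:50190830-50192668), a C/EBP factor of inflammation, differentiation and stress, had 309, 165, 113 and 76.7 CPM. Both invasion zone libraries were below both core libraries, although the core libraries also differed from each other, with a log2 ratio of replicate 2 to replicate 1 of -0.90. Its log2 fold change was -1.32 (SE 0.35, edgeR adjusted p = 0.138), and with the replicate block it was -1.28 with an adjusted p of 7.06e-05. With the block and offsets for GC content and length it was -0.91, under 2-fold, and without core replicate 1 it was -0.78. Of its exonic bases, 231 are shared with the antisense gene CEBPB-AS1, and the strand setting of the counting is not given in the sources used here.

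CEBPG, a short C/EBP factor that pairs with ATF4, had 60.6 and 86.4 CPM in the core and 101 and 148 CPM in the invasion zone, and its log2 fold change was 0.76 (SE 0.26, edgeR adjusted p = 0.171, and 0.000234 with the replicate block). Both invasion zone libraries were above both core libraries, so these partners of ATF4 differed in opposite directions.

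NUPR1 (chr16:28532708-28539008), a small chromatin protein induced by stress, had 7.68, 7.23, 2.67 and 3.03 CPM. The invasion zone libraries were well below the core libraries and the libraries within a zone were close to each other. Its log2 fold change was -1.40 (SE 0.26, edgeR adjusted p = 0.128), and with the replicate block the adjusted p was 0.00184.

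DDIT3, the factor CHOP that acts late in the stress response, had 15.5 and 15.3 CPM in the core and 10.9 and 9.85 CPM in the invasion zone. Its log2 fold change was -0.56 (SE 0.19, edgeR adjusted p = 0.169, and 0.0202 with the block). Of the exonic bases of DDIT3, 413 overlap genes of the other strand, MARS among them, and MARS differed in the other direction. ATF3, an early stress factor, had 7.77 and 7.89 CPM in the core and 6.08 and 4.46 CPM in the invasion zone (log2 fold change -0.55, edgeR adjusted p = 0.267, and 0.0826 with the block). ATF5, which serves the mitochondrial stress response, lay between 9.85 and 12.4 CPM in all 4 libraries with a log2 fold change of 0.06, whose sign turned when core replicate 2 or invasion zone replicate 1 was left out.

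The 7 stress effectors and brakes split between those higher and those lower in the invasion zone, and VLDLR had the widest difference of all 38 members. With the replicate block PPP1R15A and EIF4EBP1 were higher, and TRIB3 and VLDLR lower. The median log2 fold change of the list was -0.07, and 0.06 with offsets for GC content and length.

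VLDLR (chr9:2621182-2660056), a lipoprotein receptor that stress and lack of oxygen are known to raise, had 29.3, 29.1, 10.1 and 7.66 CPM. The core libraries were alike and both invasion zone libraries were far below them. The log2 fold change was -1.70 (SE 0.21, edgeR adjusted p = 0.128), which is 3.26-fold higher in the core, and with the replicate block the adjusted p was 0.000108. DESeq2 without a replicate term gave an adjusted p of 3.38e-07.

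PPP1R15A encodes GADD34, which leads a phosphatase to eIF2 and so ends the response. It had 158 and 205 CPM in the core and 219 and 278 CPM in the invasion zone, and its log2 fold change was 0.45 (SE 0.20, edgeR adjusted p = 0.241, and 0.00148 with the block). The zones did not overlap, although the higher core library came close to the lower invasion zone library. EIF4EBP1, which encodes the translation repressor 4E-BP1, had 98.5 and 144 CPM in the core and 141 and 214 CPM in the invasion zone. Its zones overlapped, and its log2 fold change of 0.55 had an edgeR adjusted p of 0.285, and of 0.000717 with the block.

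TRIB3, a pseudokinase that restrains ATF4 and CHOP, had 70.8 and 67.5 CPM in the core and 55.3 and 53.5 CPM in the invasion zone. The zones did not overlap. The log2 fold change was -0.35 (SE 0.13, edgeR adjusted p = 0.200, and 0.0160 with the block), but with the block and offsets for GC content and length it was -0.05 with an adjusted p of 0.771.

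The remaining effectors had an adjusted p over 0.05 with and without the block. SESN2, a leucine sensor that restrains mTORC1, had 18.1 and 22.8 CPM in the core and 25.8 and 23.5 CPM in the invasion zone, which did not overlap (log2 fold change 0.27). With the block and offsets for GC content and length its value was 0.58 with an adjusted p of 0.00122. CHAC1, which degrades glutathione, was between 2.24 and 4.05 CPM (log2 fold change -0.54). STC2, a secreted glycoprotein, was between 828 and 1058 CPM (log2 fold change -0.07, and positive with the GC and length offsets).

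**Figure D3:**
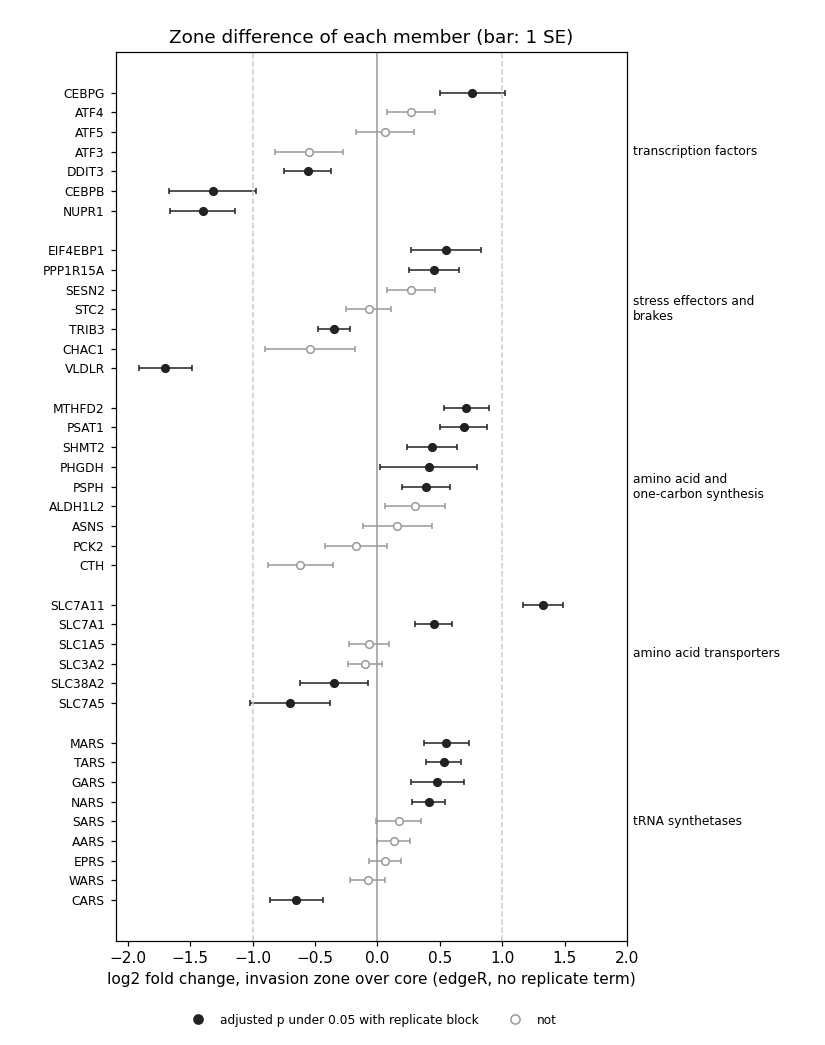
Log2 fold change (invasion zone against core) of each member, from edgeR without a replicate term, with bars of 1 SE, grouped by role, and dashed lines at 2-fold. Filled symbols mark the 22 members whose adjusted p was under 0.05 with the replicate block, 14 of them to the right of 0 and 8 to the left. Of all genes tested, 19.4% were so marked in each direction. This way of marking was chosen after the data were seen.

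The enzymes of serine, glycine and one-carbon synthesis had mostly positive differences, all under 2-fold. Of the 9 genes, 7 had a positive and 2 a negative difference, and the median log2 fold change was 0.39. With the replicate block 5 were higher and 0 lower, beside 19.4% of all genes in each direction. With GC and length offsets 8 were positive and the median was 0.42. None was called in the fit without a replicate term.

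MTHFD2 (chr2:74186172-74217565), the mitochondrial folate dehydrogenase, had 54.4, 69.8, 94.3 and 109 CPM. Both invasion zone libraries were above both core libraries. The log2 fold change was 0.71 (SE 0.18, edgeR adjusted p = 0.135), with an adjusted p of 0.000409 with the replicate block and of 0.0263 in DESeq2. Of its exonic bases, 1619 overlap genes of the other strand.

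The serine pathway itself runs from PHGDH through PSAT1 to PSPH, and SHMT2 then turns serine into glycine in mitochondria. PSAT1 had 41.4 and 50.1 CPM in the core and 64.7 and 83.1 CPM in the invasion zone, and its log2 fold change was 0.69 (SE 0.19, edgeR adjusted p = 0.144, and 0.000632 with the block). SHMT2 had 85.8 and 112 CPM in the core and 118 and 151 CPM in the invasion zone (log2 fold change 0.44, edgeR adjusted p = 0.252, and 0.00244 with the block). For both enzymes, and for PSPH, the zones did not overlap.

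PSPH lay between 17.4 and 27.3 CPM with a log2 fold change of 0.39 (edgeR adjusted p = 0.279, and 0.0307 with the block). PHGDH, the first step of the pathway, had 11.9 and 24.9 CPM in the core and 20.3 and 28.5 CPM in the invasion zone. The core libraries of PHGDH differed by more than the zones, so that the log2 fold change of 0.41 had an SE of 0.39 (edgeR adjusted p = 0.556, and 0.0367 with the block), and the sign turned without core replicate 1.

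ASNS, asparagine synthetase, is often used as a readout of ATF4 and did not separate the zones here. It had 7.32 and 11.1 CPM in the core and 10.8 and 9.68 CPM in the invasion zone (log2 fold change 0.16, SE 0.28, edgeR adjusted p = 0.769, and 0.473 with the block). In replicate 1 it was higher in the invasion zone and in replicate 2 lower.

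CTH, which makes cysteine by transsulfuration, was the one enzyme below the core in both invasion zone libraries, with 6.01 and 5.57 CPM in the core and 3.76 and 3.79 CPM in the invasion zone (log2 fold change -0.62, SE 0.26, edgeR adjusted p = 0.223, 0.0648 with the block, and 0.0223 with the block and GC and length offsets). ALDH1L2, a mitochondrial folate enzyme, lay between 13.9 and 22.6 CPM (log2 fold change 0.30, edgeR adjusted p = 0.497, 0.0990 with the block, and 0.0365 with the block and these offsets). PCK2, the mitochondrial enzyme that makes phosphoenolpyruvate, lay between 24.2 and 36.3 CPM (log2 fold change -0.17, and positive with the GC and length offsets).

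The amino acid transporters included the widest difference towards the invasion zone and no common direction. With the replicate block SLC7A11 and SLC7A1 were higher and SLC7A5 and SLC38A2 lower in the invasion zone. The median log2 fold change of the 6 genes was -0.08, and 0.18 with offsets for GC content and length, where SLC3A2 and SLC1A5 turned positive.

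SLC7A11 (chr4:138164097-138242349) is the cystine and glutamate exchanger xCT. It had 17.9, 20.4, 46.0 and 50.3 CPM. Libraries within a zone were alike, and both invasion zone libraries were more than 2-fold above both core libraries. The log2 fold change was 1.33 (SE 0.16, edgeR adjusted p = 0.128), a level 2.51-fold higher, and with the replicate block the adjusted p was 8.43e-05. DESeq2 without a replicate term gave an adjusted p of 2.88e-06, and the log2 fold change lay between 1.25 and 1.43 over the settings tried. SLC7A11 shares 865 exonic bases with the antisense gene SLC7A11-AS1.

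SLC3A2 encodes CD98hc, the heavy chain that carries SLC7A11 or SLC7A5 to the cell surface. It had 281, 248, 243 and 250 CPM, a log2 fold change of -0.10 (SE 0.14, edgeR adjusted p = 0.711). The shared chain thus differed between zones by less than between the core libraries, while the CPM ratio of SLC7A11 to it was 0.064 and 0.082 in the core and 0.189 and 0.201 in the invasion zone.

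SLC7A5 encodes LAT1, which takes up large neutral amino acids such as leucine. It had 916 and 530 CPM in the core and 531 and 359 CPM in the invasion zone, and the CPM ratio of SLC7A5 to SLC3A2 was 3.262 and 2.139 in the core and 2.181 and 1.437 in the invasion zone. The zones met at the second core and first invasion zone library. Its log2 fold change was -0.70 (SE 0.32, edgeR adjusted p = 0.254), and with the block the adjusted p was 0.000335. With the block and GC and length offsets the value was -0.31 with an adjusted p of 0.00978.

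SLC7A1, the carrier CAT1 for arginine and lysine, had 159 and 148 CPM in the core and 226 and 195 CPM in the invasion zone. The zones did not overlap, and the log2 fold change was 0.45 (SE 0.15, edgeR adjusted p = 0.161, and 0.00188 with the block). SLC38A2, the carrier SNAT2 for small neutral amino acids, had 1258 and 968 CPM in the core and 1067 and 681 CPM in the invasion zone, which overlap (log2 fold change -0.35, edgeR adjusted p = 0.466, and 0.00779 with the block). SLC1A5, the glutamine carrier ASCT2, lay between 220 and 274 CPM with a log2 fold change of -0.07.

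Of the 9 cytosolic tRNA synthetases of the list, 7 had a positive and 2 a negative difference, and the median was 0.17 on the log2 scale. Each joins 1 amino acid to its tRNA, or in the case of EPRS a pair of them. Beside 19.4% of all genes in each direction with the replicate block, 4 of the 9 were higher (GARS, MARS, NARS and TARS) and 1 lower (CARS). The largest difference among them was that of CARS, which with WARS was 1 of the 2 negative ones.

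CARS (chr11:3000922-3057613), which charges tRNA with cysteine, had 312, 242, 200 and 152 CPM. Both invasion zone libraries were below both core libraries. The log2 fold change was -0.65 (SE 0.21, edgeR adjusted p = 0.160), with -0.64 in replicate 1 and -0.67 in replicate 2, and with the replicate block the adjusted p was 0.000258. CARS shares 205 exonic bases with the antisense gene CARS-AS1.

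TARS, for threonine, had 149 and 162 CPM in the core and 216 and 235 CPM in the invasion zone, and its log2 fold change was 0.53 (SE 0.14, edgeR adjusted p = 0.135, and 0.000682 with the block). NARS, for asparagine, had 199 and 203 CPM in the core and 256 and 277 CPM in the invasion zone (log2 fold change 0.41, edgeR adjusted p = 0.163, and 0.00268 with the block). In both genes the difference between zones was wider than that between libraries of a zone.

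MARS, for methionine, had 110 and 131 CPM in the core and 157 and 195 CPM in the invasion zone (log2 fold change 0.55, edgeR adjusted p = 0.161, and 0.000766 with the block). GARS, for glycine, had 200 and 271 CPM in the core and 289 and 366 CPM in the invasion zone (log2 fold change 0.48, edgeR adjusted p = 0.241, and 0.00111 with the block). Of MARS, 874 exonic bases lie opposite other genes, DDIT3 among them. The other 4 synthetases had an adjusted p over 0.05 in edgeR with and without the block. WARS, for tryptophan, lay between 341 and 388 CPM, SARS, for serine, between 212 and 288 CPM, AARS, for alanine, between 202 and 234 CPM and EPRS, for glutamate and proline, between 229 and 244 CPM, with log2 fold changes of -0.08, 0.17, 0.13 and 0.06. With the block and GC and length offsets SARS and AARS had an adjusted p of 0.0254 and 0.0153.

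Of the 6 synthetases with the element shown above, 5 had a positive difference, among them the 4 that were higher with the block, and CARS a negative one. Whether the element goes with the direction was not tested. The 13 members with the element had 8 positive and 5 negative differences and a median log2 fold change of 0.16. The 19 members with a window and no element had 9 positive and 10 negative differences and a median of -0.07. The other 6 members, which had no window, had 5 positive and 1 negative difference and a median of 0.42.

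The other cytosolic synthetases also had mostly positive differences. Of 11 genes, 9 were positive and the median was 0.50 on the log2 scale. With the replicate block 8 were higher and 1 lower, beside 19.4% of all genes in each direction. FARSB, a chain of the phenylalanine enzyme, had 95.1 and 154 CPM in the core and 214 and 305 CPM in the invasion zone (log2 fold change 1.06, edgeR adjusted p = 0.143, and 6.66e-05 with the block), and leaving out core replicate 1 or invasion zone replicate 2 took its log2 fold change to 0.77 or 0.78, under 2-fold. VARS, for valine, had a log2 fold change of 0.87 (edgeR adjusted p = 0.128, and 0.000117 with the block). Of 17 mitochondrial synthetases, 14 were positive with a median of 0.24. With the block 6 of the 17 were higher and 1 lower, beside the same 19.4% of all genes in each direction. MARS2 and NARS2 had the largest positive differences there, at 0.84 and 0.73 (edgeR adjusted p = 0.194 and 0.147, and 0.000969 and 0.000985 with the block). Positive differences were thus as common among synthetases that are not members, and whether these lists differ was not tested.

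Further genes of folate metabolism had, like MTHFD2 and SHMT2, mostly positive differences. Of 13 genes listed 10 were tested, 9 were positive and the median was 0.45. With the block 5 were higher and 1 lower, beside 19.4% of all genes in each direction. TYMS, the thymidylate synthase used in DNA replication, had 35.4 and 46.8 CPM in the core and 111 and 94.9 CPM in the invasion zone (log2 fold change 1.33, edgeR adjusted p = 0.128, and 0.000205 with the block).

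Upstream of ATF4, the 18 genes of the eIF2 kinases and the initiation arm had a median log2 fold change of 0.13, with 11 positive and 7 negative. With the block 6 were higher and 2 lower, beside 19.4% of all genes in each direction. EIF2B3, a subunit of the exchange factor eIF2B, had a log2 fold change of 0.86 (edgeR adjusted p = 0.135, and 0.000208 with the block). EIF2AK3, the kinase PERK of the endoplasmic reticulum, had 39.6 and 32 CPM in the core and 25.5 and 16.0 CPM in the invasion zone, and its log2 fold change was -0.78 (edgeR adjusted p = 0.170, and 0.00145 with the block). EIF2AK4, the amino acid sensor GCN2, which was added here after its values were seen, had 151 and 131 CPM in the core and 181 and 137 CPM in the invasion zone and a log2 fold change of 0.18 (edgeR adjusted p = 0.606).

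Of 26 further genes linked to ATF4 or CHOP in stressed cells, 22 were tested. Their median log2 fold change was -0.18 (-0.01 with offsets for GC content and length). With the replicate block 6 were higher and 10 lower, beside 19.4% of all genes in each direction. The widest differences among the genes of all these lists lay here. TXNIP, a brake on glucose uptake, had 101 and 71.4 CPM in the core and 9.82 and 12.7 CPM in the invasion zone, and its log2 fold change was -2.95 (SE 0.25, edgeR adjusted p = 0.128, and 5.08e-05 with the block). DDIT4 (REDD1), a brake on mTORC1 that lack of oxygen also raises, had 126 and 202 CPM in the core and 37.0 and 15.6 CPM in the invasion zone, and its log2 fold change was -2.62 (SE 0.46, edgeR adjusted p = 0.128, and 0.000589 with the block). Without invasion zone replicate 1 the value of DDIT4 was -3.40. The secreted stress signals GDF15 and FGF21, named after their values were seen, stayed at or under 0.16 CPM in every library and were not tested.

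Of 22 other amino acid transporters 12 were tested, with 6 positive and 6 negative differences and a median of 0.03. With the block 3 of them (SLC7A6, SLC36A1 and SLC38A1) were higher and 1 lower, beside 19.4% of all genes in each direction. The 2 with the largest differences were both lower. SLC43A2, a carrier of large neutral amino acids, had a log2 fold change of -1.39 (edgeR adjusted p = 0.159, and 0.000972 with the block), which without core replicate 1 was -0.76, under 2-fold. SLC7A9 lay between 0.0842 and 0.615 CPM with a log2 fold change of -1.01 (edgeR adjusted p = 0.459). The 14 chaperone and folding genes of the ATF6 and XBP1 arms had a median of -0.20. With the block 1 of the 14 was higher and 7 lower, again beside 19.4% of all genes in each direction. DNAJB9 had 74.9 and 53.5 CPM in the core and 28.7 and 23.1 CPM in the invasion zone (log2 fold change -1.30, edgeR adjusted p = 0.128, and 8.39e-05 with the block), and HSP90B1 had a log2 fold change of -0.64 (edgeR adjusted p = 0.155, and 0.000286 with the block).

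**Figure D4:**
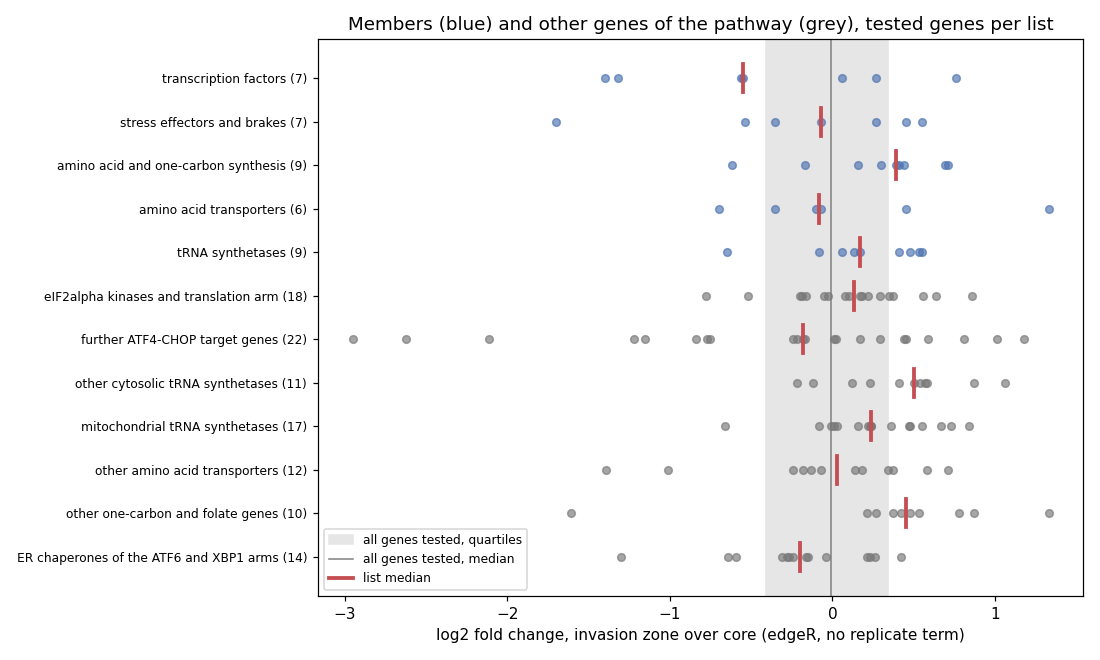
Log2 fold change (invasion zone against core) of every tested gene of the 5 member roles (blue) and of the 7 other lists (grey), with each list's median in red and the median and quartiles of all 15529 genes tested as a line and a band. Medians run from -0.55 for the transcription factors to 0.50 for the other cytosolic tRNA synthetases.

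Apart from the ratios to SLC3A2 above, which are not divided by length and serve only to compare libraries, levels were compared between genes after division by the length of all annotated exons of the gene, as mean CPM per kilobase in the core and in the invasion zone. On that scale STC2, with 195 in the core and 186 in the invasion zone, was the most abundant member in the core, followed by SLC38A2 with 171 and 134 and SLC7A5 with 152 and 93.5. EIF4EBP1 came next in the core with 138 and led in the invasion zone with 202. CEBPB went from 129 in the core to 51.7 in the invasion zone. At the other end stood NUPR1, with 1.35 and 0.517. The order depends on the length used. Per kilobase of the canonical transcript, STC2 with 222 and not EIF4EBP1 with 215 led the members in the invasion zone. GARS had 13.6 in the core per kilobase of all exons and 96.6 per kilobase of its canonical transcript, and ATF4 15.6 and 28.7.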

How the data were processed

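The authors deposited a table of raw counts per gene from bulk RNA. They had filtered out ribosomal reads (Bowtie) and reads with a quality score of 15 or less, mapped the rest to hg38 (STAR) and counted unique alignments by gene (HTSeq-count). Tool versions, annotation release and strandedness were not given in the sources used here. Low-input SMARTer amplification was used, which can add spread between libraries.

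Of 56306 rows 2 repeated ones were left out, and 0 columns of samples were unused. In R 4.3.3, edgeR 4.0.16 kept the 15529 genes with at least 10 counts at the median library size in 2 libraries and 15 in total, scaled by TMM, and tested the zones by quasi-likelihood without a replicate term, as the methods of the study name none, with Benjamini-Hochberg adjustment over all genes. DESeq2 1.42.0, limma 3.58.1, the replicate number as a block, other scalings and filters, thinning to 11789243 counts, offsets for GC content and length, and leaving out each library were the alternatives. The edgeR test, with and without the block, was also tested on simulated data in which 200 genes changed 3-fold. With no shift between replicates both forms called all 200, each with 1 unchanged gene. With a shift between replicates the test without the block called 0 of the 200 and the blocked test 197. Unchanged genes called were then 0 and 3. SE is the fold change over the root of the F value. At this depth genes of few CPM, such as CHAC1, have wide errors, and p-values measure only the spread between these libraries, which may be technical.

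The difference between replicates 2 and 1 correlated between the zones, at 0.64 across all genes tested and 0.75 across the members, over 2 pairs. Each core was dissected with its own invasion zone, and in the deposited column names the core and invasion zone of a replicate number carry consecutive identifiers. No source states what the replicate number stands for. The fit without the block is therefore given first, and the blocked value beside it wherever the call differed.

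The members and lists were chosen with earlier results of these data known. All 38 members are named. Full statistics go to ATF4, to members called, to those at least 2-fold apart without overlap, and otherwise to the largest difference of a role, and 2 genes of each other list with the largest difference are named. A single gene that this rule names is not reported here. Values per library of further members were chosen after they were seen. Symbols are those of the count table, of which 98.1% of identifiers are in GENCODE release 44. Promoters are from RefSeq on GRCh38.p14. Plots used Python 3.11.15 and matplotlib 3.10.9.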

Additional observations from a re-analysis of the deposited data

How the results depend on the processing

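Over the whole table, 0 genes were called in either direction by edgeR without a replicate term under TMM, RLE or upper-quartile scaling, a minimum of 10 counts in every library, thinning to equal depth or GC and length offsets, nor by limma voom. Genes called higher and lower numbered 427 and 846 without a filter, 530 and 1097 with the replicate block, 354 and 548 with DESeq2, 427 and 731 with DESeq2 and the replicate block, 454 and 909 at an unadjusted p under 0.05 with 2-fold, and 761 and 970 with the block and GC and length offsets, where the share called higher was 44%, beside 32.6% with the block alone. In 2 alternatives chosen after seeing the data, limma voom with the replicate block called 575 and 1088, and the block without a fold minimum 3010 and 3009. Leaving out 1 library at a time gave from 13 (without core replicate 1) to 632 (without core replicate 2) genes higher and from 125 (without core replicate 1) to 1137 (without invasion zone replicate 1) lower, the lone library being assumed to vary like the other zone.

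Of the members, 1 was called higher and 3 lower without a filter, with DESeq2, with the replicate block in edgeR, DESeq2 or limma voom and at an unadjusted p with 2-fold, 14 and 8 with the block without a fold minimum, and 1 and 2 with the block and GC and length offsets. From 0 to 2 were higher and from 1 to 3 lower on leaving out 1 library. Without a fold minimum the block with those offsets gave 19 and 8 of the 38 members, beside 25.2% and 16.8% of all genes. The median of 0.14 became 0.11 under upper-quartile scaling, 0.29 with GC and length offsets and 0.28 with these and the block, where the median of all genes moved from -0.01 to 0.08 and 0.07, and lay between 0.06 and 0.16 without 1 library. STC2, PCK2, SLC3A2 and SLC1A5 changed sign with the offsets, and ATF5, STC2, ASNS, PHGDH, PCK2, SLC3A2, SLC1A5 and SARS on leaving out some library. Beside the members higher with the block alone, the offsets with the block added ATF4, SESN2, ALDH1L2, SARS and AARS, and among the lower ones CTH took the place of TRIB3. With TGATGCAA in place of TGATGNAA, 8 members rather than 13 held the promoter element. The cause of these changes was not tested.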
